A study of Mus musculus with 2 samples.

Results

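The alpha and beta globin genes were described in MEL cells, a mouse erythroleukemia cell line derived from spleen cells of mice infected with Friend virus. The 10 globin genes were chosen by name among the 43346 genes of the deposited tables and not by a cut on their values. Earlier results of these data were known when they were chosen. They were Hba-a1, Hba-a2, Hba-x, Hbq1a and Hbq1b of the alpha locus on chromosome 11, and Hbb-bs, Hbb-bt, Hbb-y, Hbb-bh1 and Hbb-bh2 of the beta locus on chromosome 7. All 10 symbols were found in both gene tables, and their 16 listed transcripts comprised 12 of the coding type and 4 of the retained-intron type. Positions are on the mouse build mm10.

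Polyadenylated RNA was sequenced single-end in 2 libraries, biological replicates 1 and 2 of a single group per the labels. The labels call the cells an immortalized line and name no inducer of differentiation, no genotype change and no other treatment, so no condition was compared with another. Each library has a biosample of its own, but nothing states that they were separate cultures, so the spread between them may be partly technical. The expected counts on genes summed to 67735380 in replicate 1 and 79923143 in replicate 2, and a gene at 0 counts could still hold up to 4.43e-06% and 3.75e-06% of them (3 counts, counting error only).

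Erythroid marker genes were measured first, as a check of the labelled cell type. Of 10 such genes, 9 had at least 1 TPM in both libraries, against 46.8% of all protein-coding genes. TPM is a relative abundance corrected for transcript length. The exception was Slc4a1, the anion exchanger of the red cell membrane, at 0.48 TPM in replicate 1 and 0.26 in replicate 2. Epb42 passed narrowly, at 1.39 and 1.72 TPM. None of 14 markers of myeloid, B, T or non-hematopoietic cells reached 1 TPM in both libraries. Their summed level was 0.91 TPM in replicate 1 and 1.73 in replicate 2, with Cd3e and Alb at 0 counts, against 952 and 1352 TPM for the erythroid markers. Bulk RNA was measured, so fewer expressing cells and less globin RNA per cell cannot be told apart.

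Hemoglobin is a tetramer of alpha-like and beta-like chains, each of which binds heme and carries oxygen. The alpha-like and beta-like genes lie in separate clusters, and within each cluster the embryonic genes are used in primitive red cells of the yolk sac and the adult genes in definitive red cells of fetal liver and bone marrow. Transcription of both clusters depends on distal enhancers bound by erythroid factors such as GATA1, KLF1 and NF-E2. Uninduced MEL cells are known as arrested erythroid precursors that make little hemoglobin until an inducer is added.

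The adult genes of each cluster have near-identical coding sequences, which limits what short reads from those sequences can tell about them. The coding comparison leaves out the untranslated parts, so it does not show that the alpha and beta copies are equally hard to separate. The coding sequences of Hba-a1 and Hba-a2 differed at 1 of 426 bases in the GENCODE M21 transcripts, and those of Hbb-bs and Hbb-bt at 1 of 441. The difference between the alpha copies was C381T and that between the beta copies C417T, counted from the A of the start codon, with the base of Hba-a1 or Hbb-bs named before the position. The 60-base stretches around these positions are shown because they hold the sole coding base that separates each pair in the reference. They are written in the direction of transcription with that base in capitals. The bases carried by the cells themselves were not examined. The alpha stretches lie at chr11:32284313-32284372 and chr11:32297130-32297189 on the plus strand, and the beta stretches at chr7:103826668-103826727 and chr7:103812659-103812718 on the minus strand.
Hba-a1: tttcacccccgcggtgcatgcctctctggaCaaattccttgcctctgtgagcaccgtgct
Hba-a2: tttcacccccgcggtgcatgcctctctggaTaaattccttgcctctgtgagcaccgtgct
Hbb-bs: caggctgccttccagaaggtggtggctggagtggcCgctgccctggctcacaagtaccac
Hbb-bt: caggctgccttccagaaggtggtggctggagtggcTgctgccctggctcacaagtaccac
The embryonic genes were much further from the adult ones. Hba-x, which encodes the embryonic zeta chain, differed from Hba-a1 at 163 coding bases (61.7% identity). Hbb-y, which encodes the embryonic epsilon-y chain, differed from Hbb-bs at 113 coding bases (74.4% identity), while Hbb-bh1 and Hbb-bh2 shared 73.9% and 70.3% of coding bases with it. In the M21 transcripts, no 45-base window of these 4 genes occurred in a transcript of another globin gene. The deposited tables use other versions of 4 of their 5 transcripts, which were not compared.

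The promoters of the adult copies differed between the loci in how alike they were. In RefSeq (GRCm38.p6), windows from 250 bases before to 50 bases after the start of transcription were found for 9 of the 10 genes, all except Hbb-bh1. The windows of Hba-a1 and Hba-a2 shared an unbroken run of 297 bases, while the longest run shared by Hbb-bs and Hbb-bt was 14 bases and that of the theta genes Hbq1a and Hbq1b was 105. Promoters of Hba-a1, Hbb-bs and Hbb-bt are shown as those of the abundant genes, and those of Hba-x and Hbb-y as the embryonic counterparts in the same loci. Capitals mark every match, on either strand, to the CACCC box, the CCAAT box, the TATAA box, its variant CATAAA or the GATA motif, and the sequences run in the direction of transcription. They lie at chr11:32283422-32283721 (plus strand), chr7:103827879-103828178 (minus), chr7:103813874-103814173 (minus), chr11:32276350-32276649 (plus) and chr7:103853158-103853457 (minus), in the order shown.
Hba-a1: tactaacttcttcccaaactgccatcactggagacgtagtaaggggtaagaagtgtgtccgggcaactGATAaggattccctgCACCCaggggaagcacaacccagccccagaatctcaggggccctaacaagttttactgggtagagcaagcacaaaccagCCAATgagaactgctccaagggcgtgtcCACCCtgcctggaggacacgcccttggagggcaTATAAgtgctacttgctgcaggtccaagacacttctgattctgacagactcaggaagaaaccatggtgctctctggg
Hbb-bs: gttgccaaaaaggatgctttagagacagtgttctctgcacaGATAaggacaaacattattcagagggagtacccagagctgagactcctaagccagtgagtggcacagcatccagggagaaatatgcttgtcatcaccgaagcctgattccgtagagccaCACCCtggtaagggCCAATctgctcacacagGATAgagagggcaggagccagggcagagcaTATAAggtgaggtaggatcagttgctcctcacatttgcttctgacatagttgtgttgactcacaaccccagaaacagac
Hbb-bt: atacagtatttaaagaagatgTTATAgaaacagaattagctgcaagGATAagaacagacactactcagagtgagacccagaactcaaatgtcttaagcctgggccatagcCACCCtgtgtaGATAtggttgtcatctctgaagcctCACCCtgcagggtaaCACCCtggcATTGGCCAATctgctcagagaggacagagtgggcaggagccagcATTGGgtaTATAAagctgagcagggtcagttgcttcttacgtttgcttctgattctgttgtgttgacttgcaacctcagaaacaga
Hba-x: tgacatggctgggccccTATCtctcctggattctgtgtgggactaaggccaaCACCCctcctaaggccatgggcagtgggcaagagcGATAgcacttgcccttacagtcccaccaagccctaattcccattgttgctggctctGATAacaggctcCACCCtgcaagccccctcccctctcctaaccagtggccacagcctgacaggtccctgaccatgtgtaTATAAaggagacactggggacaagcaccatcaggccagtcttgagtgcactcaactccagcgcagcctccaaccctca
Hbb-y: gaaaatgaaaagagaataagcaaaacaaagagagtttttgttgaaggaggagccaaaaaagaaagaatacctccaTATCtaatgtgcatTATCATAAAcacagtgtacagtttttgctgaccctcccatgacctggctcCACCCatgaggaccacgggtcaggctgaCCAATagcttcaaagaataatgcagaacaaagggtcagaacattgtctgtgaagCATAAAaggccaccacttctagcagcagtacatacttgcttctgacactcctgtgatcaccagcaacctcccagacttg
All 4 adult windows held a CACCC box, a CCAAT box and a TATAA box, a combination found in 4.53% of the 32851 RefSeq promoter windows of the same length. Singly, CACCC was found in 57.5% of all windows and CCAAT in 37.4%. The shares were 24.9% for TATAA, 11.9% for the variant CATAAA and 57.9% for GATA. The TATAA nearest the start began 27 bases before it in Hba-a1, 30 in Hba-a2, 29 in Hbb-bs and 28 in Hbb-bt. The window of Hba-x had TATAA at 28 bases before the start and 2 CACCC matches but no CCAAT. That of Hbb-y had CATAAA at 29 bases before the start and no TATAA, and 1 of its matches overlapped another. Hbq1a and Hbq1b had no CACCC. A match shows only that these letters are present.

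All 4 adult globin genes were far above the median protein-coding gene (0.49 TPM), and the highest rank that any of them reached was 361. Hba-a1, an adult alpha chain gene (ENSMUSG00000069919.7, chr11:32283511-32284465, plus strand), was at 87.75 TPM in replicate 1 and 252.05 in replicate 2. Its rank among 21474 protein-coding genes was 1672 in replicate 1 and 515 in replicate 2. Hba-a2, the other adult alpha gene (ENSMUSG00000069917.7, chr11:32296489-32297298, plus strand), was at 237.78 TPM in replicate 1 and 328.05 in replicate 2, with ranks of 554 and 361. Hba-a2 was thus given the higher TPM of the alpha copies in both libraries. The log2 ratio of Hba-a2 to Hba-a1 was 1.44 in replicate 1 and 0.38 in replicate 2. Its mean of 0.91 was below the yardstick of 1.40 defined further on, so the copies were not called apart. The split of reads between these near-identical copies is made by a model. Of the 4 adult genes, Hba-a1 differed most between libraries in TPM (2.87-fold). The means were 169.9 ± 116 TPM for Hba-a1 and 283 ± 63.8 TPM for Hba-a2 (SD, n = 2).

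The deposited credibility bounds describe the uncertainty of a TPM value within 1 library, and their level is not given in the sources used here. For the alpha genes they were much narrower than the gap between libraries. For Hba-a1 they were 78.7 to 91.9 TPM in replicate 1 and 238 to 256 in replicate 2. For Hba-a2 they were 222 to 241 TPM and 312 to 330. The posterior SD of the Hba-a1 count was 92.9 reads of 2606 in replicate 1, which is 1.82 times the counting error, and 96.3 of 6731 in replicate 2, or 1.17 times. For Hba-a2 the posterior SD was 1.24 and 0.97 times the counting error, for Hbb-bs 0.94 and 0.86 times and for Hbb-bt 0.79 and 0.86 times. It was 0 for Hbb-y at 3 reads, whose bounds still ran from 0.0246 to 0.273 TPM in replicate 1. The posterior SD thus did not hold all of the counting error. Both measures describe 1 library at a time and not the difference between libraries.

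The adult beta genes stood lower than Hba-a2. Hbb-bs (ENSMUSG00000052305.5, chr7:103826534-103828096, minus strand) was at 68.55 TPM in replicate 1 and 143.25 in replicate 2, a mean of 105.9 ± 52.8 (SD, n = 2). Hbb-bt (ENSMUSG00000073940.3, chr7:103812524-103813996, minus strand) was at 74.99 and 114.15 TPM, a mean of 94.6 ± 27.7 (SD, n = 2). Both encode an adult beta chain, and their order changed between libraries, with Hbb-bt higher in replicate 1 and Hbb-bs higher in replicate 2. The log2 ratio of Hbb-bs to Hbb-bt was -0.13 in replicate 1 and 0.33 in replicate 2, so their levels did not differ beyond the spread. The ranges of Hba-a1 and of both beta genes over the 2 libraries overlapped, while Hba-a2 in its lower library was above both beta genes in their higher one.

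**Figure D1:**
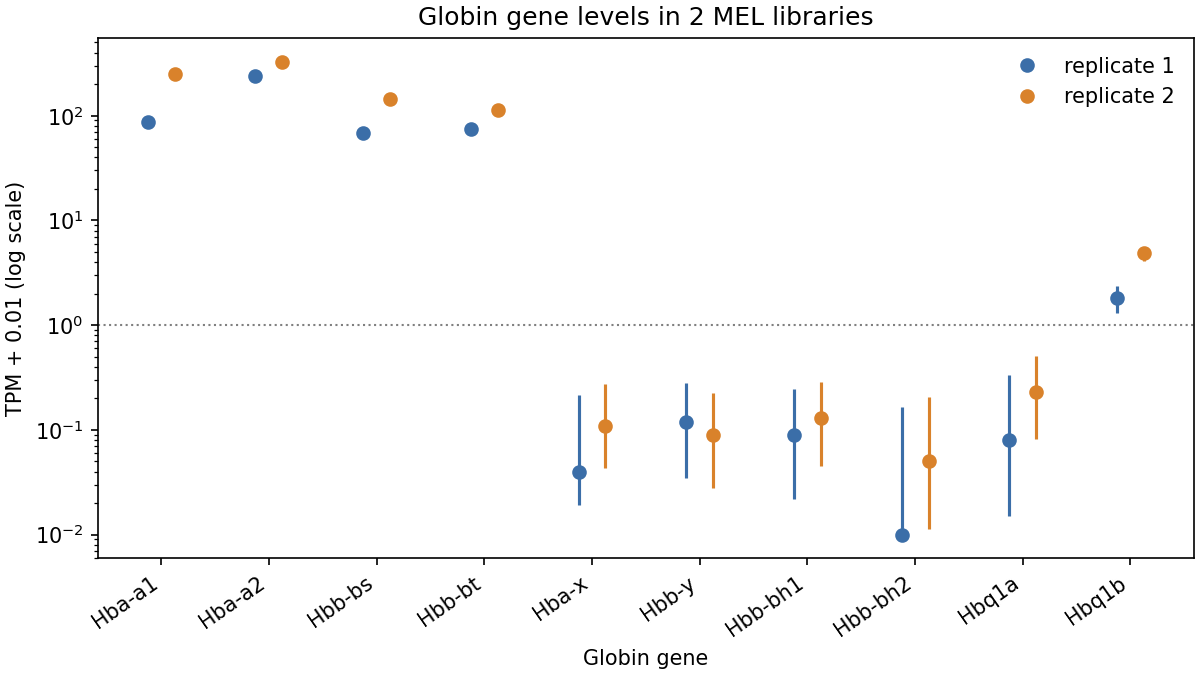
Level of each of the 10 globin genes as TPM + 0.01 on a log axis, 1 point per library (blue, replicate 1; orange, replicate 2), with the deposited credibility bounds as vertical lines and a dotted line at 1 TPM. The 4 adult genes lie between 68.55 and 328.05 TPM, the 4 embryonic genes and Hbq1a below 1 TPM, and Hbq1b at 1.82 and 4.93 TPM.

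The embryonic genes were close to the limit of detection. Hba-x had 1 read in replicate 1 and 3 in replicate 2 (0.03 and 0.1 TPM). Hbb-y had 3 reads in each library (0.11 and 0.08 TPM). Hbb-bh1, a beta-like gene of the embryo, had 2 and 4 reads (0.08 and 0.12 TPM), and Hbb-bh2, a further beta-like gene of the cluster, had 0 and 1 (0 and 0.04 TPM). The exact 95% Poisson interval of the 4 reads of Hbb-bh1 in replicate 2 ran from 1.09 to 10.2 reads, and the order of the embryonic genes was not tested. Of all reads on adult and embryonic globin genes, the embryonic genes held 6 of 12100 in replicate 1 (0.0496%, Wilson 95% interval 0.0227 to 0.108%) and 11 of 25422 in replicate 2 (0.0433%, 0.0242 to 0.0775%). The intervals of the libraries overlapped, and they cover counting error only.

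Within the beta cluster, Hbb-y, Hbb-bh1 and Hbb-bh2 together held 5 of 3905 reads in replicate 1 (0.128%, Wilson 95% interval 0.0547 to 0.299%) and 8 of 8840 in replicate 2 (0.0905%, 0.0459 to 0.178%). In the alpha cluster, Hba-x held 1 of 8195 reads shared between it and the adult alpha genes in replicate 1 (0.0122%, 0.00215 to 0.0691%) and 3 of 16582 in replicate 2 (0.0181%, 0.00615 to 0.0532%). The embryonic share was higher in the beta cluster than in the alpha cluster in both libraries. It rests on 8 reads or fewer per cluster and library, and the difference was not tested.

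The theta genes, alpha-like genes of low activity whose product has no well-established role in hemoglobin, differed from each other. Hbq1b (ENSMUSG00000073063.3, chr11:32286965-32287784) had 47.2 expected counts in replicate 1 and 156.7 in replicate 2, or 1.82 and 4.93 TPM. Hbq1a (ENSMUSG00000020295.1, chr11:32300069-32300873) had 1.84 and 7.29 expected counts, or 0.07 and 0.22 TPM. With a pseudocount of 0.1 TPM, the log2 ratio of Hbq1b to Hbq1a was 3.50 in replicate 1 and 3.97 in replicate 2. This was larger than the spread between libraries, but that spread was taken over genes with at least 1 TPM in both, and Hbq1a was below this level. Hbq1a was also close to the pseudocount, so the size of the ratio and its order between libraries depend on the pseudocount. Together the theta genes held 0.594% of theta and adult alpha reads in replicate 1 (Wilson 95% interval 0.450 to 0.785%) and 0.980% in replicate 2 (0.841 to 1.14%). These intervals did not overlap, but they cover counting error only, and the difference was not tested. Of the 45-base windows of Hbq1a-201, 61.4% occurred in no other transcript and 38.6% also in Hbq1b, so the split between them rests on the former.

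Because the copies divide reads by a model, they were pooled to compare the chains. Adult alpha RNA was at 325.53 TPM in replicate 1 and 580.1 in replicate 2 (453 ± 180, SD, n = 2). Adult beta RNA was at 143.54 and 257.4 TPM (200.5 ± 80.5). Pooled, they would rank 378 and 184 for alpha and 984 and 502 for beta in replicates 1 and 2. The lowest alpha value was above the highest beta value, and both chains were higher in replicate 2, alpha 1.78-fold and beta 1.79-fold. All 4 adult genes together made up 0.0469% of all TPM in replicate 1 and 0.0838% in replicate 2.

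Alpha exceeded beta in each library, and in TPM of whole genes by nearly the same factor. The log2 ratio, computed with a pseudocount of 0.1 TPM, was 1.18 in replicate 1 and 1.17 in replicate 2 (mean 1.18 ± 0.0062, SD, n = 2), or 2.27-fold and 2.25-fold. With 1 group and 2 libraries, an exact sign-flip permutation test cannot give a two-sided p below 0.5, so no test was made. As a yardstick, 95% of genes with at least 1 TPM in both libraries differed between the libraries by less than 1.40 on the log2 scale (2.64-fold). The alpha to beta ratio was below this yardstick and so was not called apart. The yardstick is the change of single genes between libraries and not the error of a ratio within a library, so this does not show that the chains were alike. In expected counts, with no correction for length, the log2 ratio was 1.07 in replicate 1 and 0.91 in replicate 2 (2.10-fold and 1.88-fold).

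Adult and embryonic output differed by far more than the yardstick, although the yardstick was taken over genes at 1 TPM or more and the embryonic pool was lower. The 4 adult genes exceeded the 4 embryonic genes by 10.5 in replicate 1 and 10.9 in replicate 2 on the log2(TPM + 0.1) scale, 1466-fold and 1904-fold. The embryonic pool was at 0.22 and 0.34 TPM, so the pseudocount set much of these folds, which were 385 and 626 with a pseudocount of 1 and 2039 and 2393 with 0.01. With the theta genes added to the embryonic ones, the pooled low genes were at 2.11 TPM in replicate 1 and 5.49 in replicate 2 (3.8 ± 2.39, SD, n = 2). The log2 ratio of adult genes to this pool was 7.73 and 7.23 (7.48 ± 0.36), so most of the low pool was Hbq1b.

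The transcript tables placed the adult copies on transcripts of different types. For Hba-a1, the coding transcript (ENSMUST00000093209.3) was at 83.24 TPM in replicate 1 and 4.56 in replicate 2, while the retained-intron transcript (ENSMUST00000142555.1) was at 4.51 and 247.5 TPM. The retained-intron share of Hba-a1 was thus 5.14% in replicate 1 and 98.2% in replicate 2. Hba-a2 had all of its TPM on its coding transcript (ENSMUST00000093207.3) in both libraries, and its retained-intron transcript (ENSMUST00000147010.1) was listed at 0 in both. The deposited bounds of the Hba-a1 retained-intron transcript were 2.18 to 7.87 TPM in replicate 1 and 233 to 251 in replicate 2, so they did not overlap.

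For Hbb-bs, most TPM lay on the retained-intron transcript in both libraries. Hbb-bs-202 was at 65.92 TPM in replicate 1 and 132.05 in replicate 2, and the coding Hbb-bs-201 at 2.63 and 10.98. This put 96.2% and 92.2% of Hbb-bs TPM on the retained-intron type. That type is the one M21 gives to its own version of Hbb-bs-202, of 344 bases. The deposited version has 549 bases, and its structure was not seen. Hbb-bs-203, a shorter coding transcript, was at 0 and 0.22 TPM. Hbb-bt has 1 listed transcript, Hbb-bt-201, which is coding and carried all 74.99 and 114.15 TPM of the gene. Hbq1b was mixed, with Hbq1b-201 (coding) at 1.2 and 4.05 TPM and Hbq1b-202 (retained intron) at 0.63 and 0.87.

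**Figure D2:**
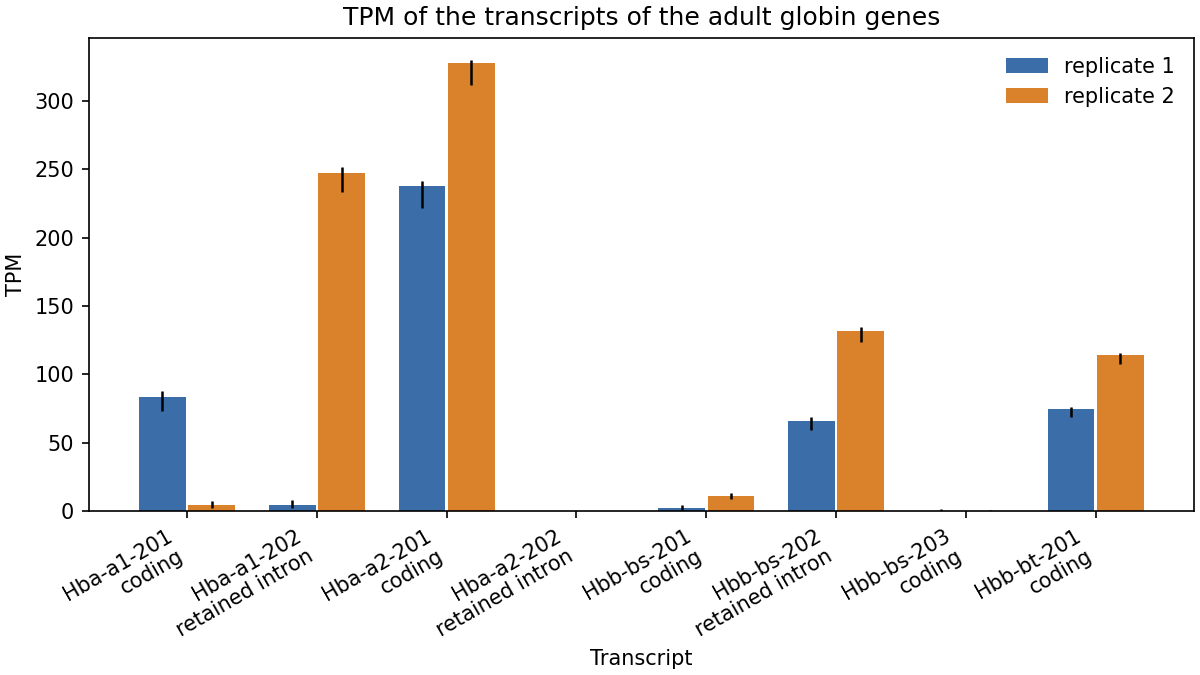
TPM of the 8 listed transcripts of the adult globin genes in replicate 1 (blue) and replicate 2 (orange), with the deposited credibility bounds as lines. The coding and retained-intron transcripts of Hba-a1 exchange places between the libraries, at 83.24 and 4.51 TPM in replicate 1 and 4.56 and 247.5 in replicate 2, while Hbb-bs-202 is the main Hbb-bs transcript in both.

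Over all adult globin TPM, retained-intron transcripts held 15.0% in replicate 1 and 45.3% in replicate 2. In the alpha pool the share was 1.39% and 42.7%, and in the beta pool 45.9% and 51.3%. The beta and total shares, and the beta values on coding transcripts, rest on the M21 type of Hbb-bs-202. On coding transcripts alone, adult alpha was at 321 TPM in replicate 1 and 333 in replicate 2, so the alpha pools of the libraries differed mainly in the TPM placed on the retained-intron transcript of Hba-a1. Adult beta on coding transcripts was at 77.6 and 125 TPM. The log2 ratio of alpha to beta was then 2.05 in replicate 1 and 1.41 in replicate 2 (1.73 ± 0.45, SD, n = 2). Both were above the yardstick of 1.40, replicate 2 only just (1.407 against 1.398). That yardstick was computed on whole genes and not on coding transcripts. In expected counts the mean was 1.40, below the yardstick of 1.47 on that scale. Between coding transcripts of the copies, Hbb-bt exceeded Hbb-bs by 4.78 and 3.34 on the log2 scale, and Hba-a2 exceeded Hba-a1 by 1.51 and 6.14.

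These shares were set beside those of other genes. Of 3191 genes with at least 10 TPM in both libraries and at least 1 coding and 1 retained-intron transcript, the median retained-intron share was 6.22% in replicate 1 and 5.35% in replicate 2. Retained-intron transcripts held over 50% of TPM in 5.8% of these genes in replicate 1, in 5.48% in replicate 2 and in 3.73% in both. Hbb-bs was among the latter, Hba-a1 was over 50% in replicate 2 alone and Hba-a2 in neither. Types are those of M21, and for Hbb-bs-202 the deposited version differs from the M21 version. The share differed by at least 50 points between libraries in 9 genes (0.282%), of which Hba-a1 was 1, and its difference of 93.1 points was exceeded by 0 of the 3191 genes. Hbb-bs differed by -3.98 points (replicate 2 less replicate 1).

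**Figure D3:**
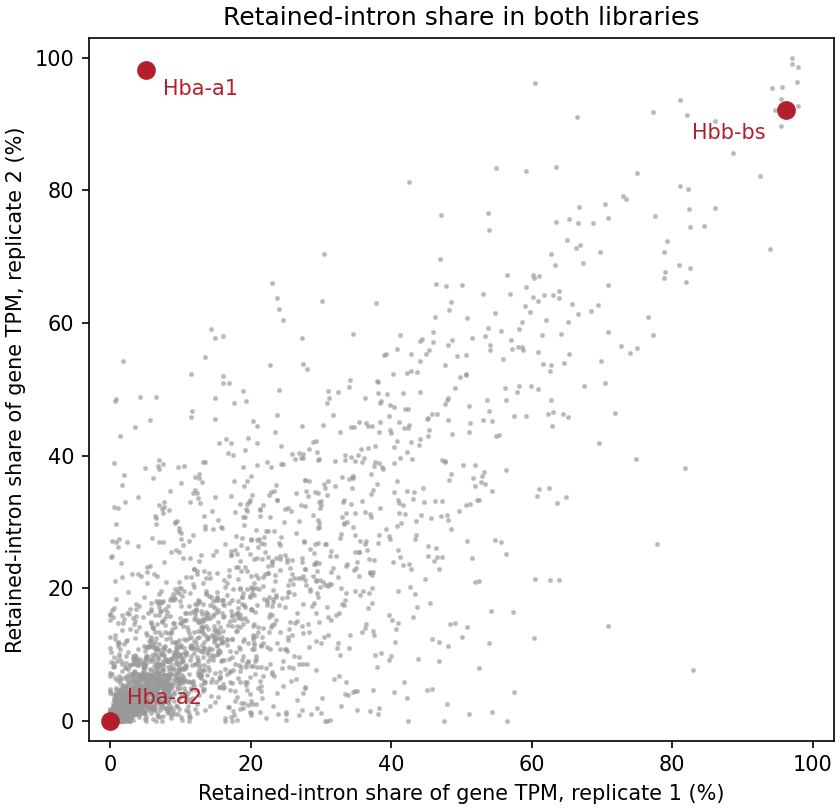
Share of each gene's TPM on retained-intron transcripts in replicate 1 (horizontal, %) and replicate 2 (vertical, %), for 3191 genes in grey and 3 adult globin genes in red. Hba-a1 sits alone at 5.14% and 98.2%, Hbb-bs near the upper right corner at 96.2% and 92.2%, and Hba-a2 at 0% in both.

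The structure of the transcripts showed how much sequence could place a read on the retained-intron transcript of Hba-a1. Its exons, chr11:32283811-32284128 and chr11:32284263-32284438, begin inside the first intron of the coding transcript, whose exons are chr11:32283511-32283801, chr11:32283924-32284128 and chr11:32284263-32284465. The retained-intron transcript therefore lacks the first exon with the start codon and holds 113 intron bases. The end of that intron and the start of the next exon are shown (chr11:32283864-32283953, plus strand, intron bases in capitals), because this junction is what an unspliced read would hold and a spliced read would not.
Hba-a1 retained-intron transcript: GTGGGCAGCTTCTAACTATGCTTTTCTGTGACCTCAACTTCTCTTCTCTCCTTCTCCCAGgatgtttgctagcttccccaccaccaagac
The same 90 bases occur in the retained-intron transcript of Hba-a2 at chr11:32296681-32296770, and over their full 494 bases the retained-intron transcripts of the copies differed at 1 base.

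Windows of 45 bases were counted, the length at which the deposited effective lengths place a read (length less 44). The retained-intron transcript of Hba-a1 had 450 windows, and 0 of them were found in it alone. Of the 113 windows with an intron base, all 113 also occurred in the retained-intron transcript of Hba-a2, and 339 of the 450 also occurred in the coding transcript of Hba-a1. That coding transcript had 655 windows, of which 161 were found in it alone, and all 161 began in the 161 bases by which its annotated first base precedes the RefSeq start. The coding transcript of Hba-a2 had 510 windows, 16 of them found in it alone, and it shared 449 with that of Hba-a1. Thus no 45-base stretch was particular to the retained-intron transcript of either copy. The division of alpha reads among the 4 transcripts was not tested against read alignments.

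**Figure D4:**
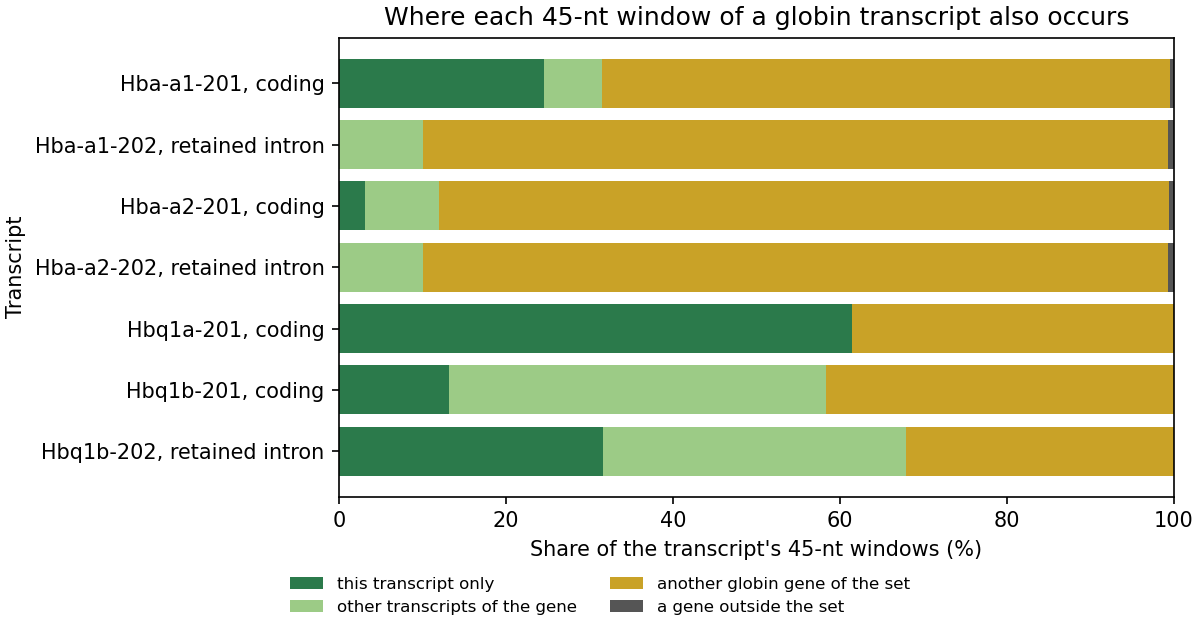
Share (%) of the 45-base windows of the 7 adult alpha and theta transcripts, which have the same version in the deposited and the reference annotation, that occur in that transcript alone, in other transcripts of its gene, in another of the 10 globin genes, or in a gene outside them. The retained-intron transcripts of Hba-a1 and Hba-a2 have 0% of their windows to themselves, the coding transcript of Hba-a1 has 24.6% and Hbq1a-201 has 61.4%.

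Windows were not compared in this way for the beta copies. The versions of Hbb-bs-201 and Hbb-bs-202 in the deposited tables (778 and 549 bases) differ in length from those of the reference annotation (628 and 344 bases), so neither they nor Hbb-bt, whose shared windows depend on them, are given window counts. In all, 3 windows of each adult alpha transcript also occurred in the pseudogene Hba-ps4. In expected counts, Hba-a1 took 31.8% of adult alpha reads in replicate 1 and 40.6% in replicate 2, and Hbb-bs took 41.6% and 49.9% of adult beta reads.

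The libraries were then compared for each globin gene, as a description of 2 libraries of 1 group with no test. Scaled expected counts (TMM) gave a log2 ratio of replicate 2 to replicate 1 of 1.01 for Hba-a1, 0.46 for Hba-a2, 1.08 for Hbb-bs, 0.60 for Hbb-bt and 1.37 for Hbq1b. These 5 genes had a summed count of at least 20, and the other 5 did not. Hba-a1, Hbb-bs and Hbq1b were at least 2-fold higher in replicate 2, as were 8.08% of all 15251 genes tested, while 12.3% were at least 2-fold higher in replicate 1. With DESeq2 size factors Hba-a1 was at 0.99 and so under 2-fold. The pooled log2 ratios were 0.66 for adult alpha and 0.82 for adult beta.

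The scaling of the libraries and the base composition of the genes moved with these ratios. With library totals in place of TMM, the median of all genes shifted from 0.02 to 0.14, and the share of 2-fold calls that were higher in replicate 2 went from 39.6% to 54.5%. Under that scaling the 5 globin ratios ran from 0.58 for Hba-a2 to 1.49 for Hbq1b. Genes of like GC content (within 2 percentage points) had a median log2 ratio of 0.70 around Hba-a1, 0.69 around Hba-a2, 0.25 around Hbb-bs, 0.04 around Hbb-bt and 0.55 around Hbq1b. Hba-a2 was thus below genes of its GC content and the other 4 above them. Reads of the near-identical copies are divided by a model, however. Pooled adult alpha, at 0.66, was close to the medians around both alpha copies. Pooled adult beta, at 0.82, was above the medians around both beta copies. The part of GC content in the ratios was not tested.

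**Figure D5:**
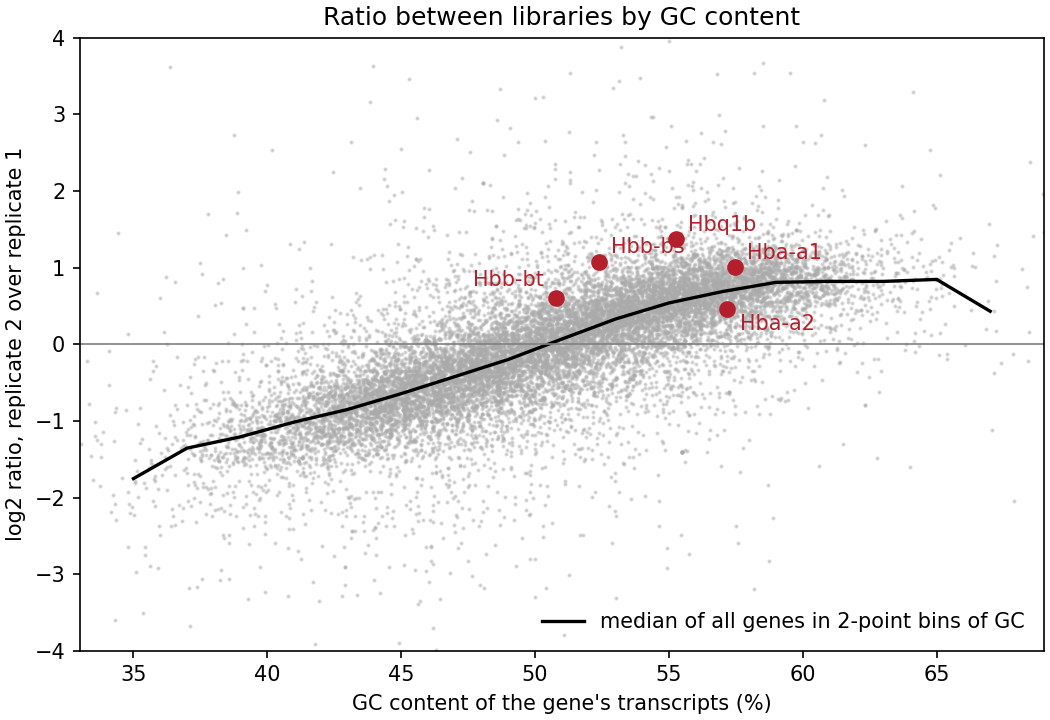
Log2 ratio of replicate 2 to replicate 1 (vertical) against the GC content of the gene's transcripts (horizontal, %) for 15102 genes in grey, 191 of which lie outside the axes, with the median in 2-point bins as a black line and 5 globin genes in red. The line rises with GC content, and Hba-a2 (0.46) lies under it while Hbq1b (1.37), Hbb-bs (1.08), Hba-a1 (1.01) and Hbb-bt (0.60) lie over it. Reads of the alpha copies are divided by a model, and their pooled ratio, not drawn, was 0.66.

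The neighbours of the loci differed in activity. The alpha genes span 24.5 kb of chromosome 11, and 7 of the 9 other genes within 200 kb had at least 1 TPM in both libraries. Of all 43346 genes, 12246 reached 1 TPM in replicate 1 and 12167 in replicate 2. Snrnp25, which encodes a protein of the minor spliceosome, was at 80.23 TPM in replicate 1 and 98.2 in replicate 2. Nprl3, whose introns hold the alpha globin enhancers, was at 9.74 and 13.77 TPM. Mpg, a DNA glycosylase gene, was at 21.12 and 31.55, Rhbdf1 at 5.37 and 11, and Il9r, the interleukin 9 receptor gene, at 28.57 and 42.78. Sh3pxd2b and Ubtd2 were at 9.57 and 12.89 and at 15.81 and 21.71 TPM. The pooled adult alpha level was above each of these in both libraries.

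The beta genes span 40.7 kb of chromosome 7 and lie among olfactory receptor genes. Of the 34 other genes within 200 kb, 31 had 0 counts in both libraries and 1, the pseudogene Dnajc19-ps, had at least 1 TPM in both (1.11 and 1.06). Of all 43346 genes, 22857 had a rounded count of at least 1 summed over the libraries, and the rest had 0. The loci also differ in gene types, with 23 of these 34 genes protein-coding, against 7 of the 9 near the alpha genes. Of the 29 olfactory receptor genes, 27 had 0 counts in both libraries, and the highest level of the others was 0.02 TPM. The beta-like pseudogenes Hbb-bh0 and Hbb-bh3 were at 0.

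Regulators of globin genes were all present. All 14 listed regulators had at least 1 TPM in both libraries and 12 had at least 10, with a median of 76.7 TPM, against 46.8% of all protein-coding genes at 1 TPM or more and a median of 0.49. Ldb1, which joins enhancers to promoters, was highest at 343 and 483 TPM, and Gata1, the erythroid zinc finger factor, followed at 163 and 376. Sox6 and Nr2c1, both known as repressors of embryonic beta-like genes, were lowest at 2.17 and 3.41 and at 5.96 and 4.34 TPM. Bcl11a, another repressor of embryonic beta-like genes, was at 78.98 and 84.82 TPM. Klf1, an activator of the adult beta genes, was at 113.5 and 198 TPM.

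Other globin-fold genes were low. Cygb, which encodes cytoglobin, was at 2.97 TPM in replicate 1 and 6.61 in replicate 2, above Hbq1b in both libraries. Mb (myoglobin) was at 0.02 and 0.03 TPM, Ngb (neuroglobin) at 0.04 and 0.02, and Adgb (androglobin) had 0 counts in both. Ahsp, the chaperone gene of free alpha chains, had no match by symbol and has no value here.

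The protein-coding genes closest in level were found by distance on the log2(TPM + 1) scale over the 2 libraries. For pooled adult alpha they were Prelid1 (321.67 and 546.1 TPM), Arhgdia (312.65 and 622.23) and Ptbp1 (344.4 and 618.76). For pooled adult beta they were Ube2v1 (143.05 and 258.53), Tmem258 (141.66 and 254.71) and Gstp1 (145.54 and 262.69). With 2 libraries this likeness describes level alone.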

How the data were processed

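Per the text deposited with each sample, reads of each library were aligned to mm10 and its transcriptome and quantified with GENCODE M4. Which aligner and quantifier were run, and with which strand setting, is not given in the sources used here. Expected counts deposited by the authors are estimated reads, with reads that fit several places divided by a model. The authors' TPM and FPKM are scaled by effective length, and per the file headers the score columns hold credibility bounds on TPM and posterior SDs of counts.

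GENCODE M21, also on mm10, supplied symbols, transcript types and sequences by identifier, and 10 of 16 globin transcripts had the same version in both. Globin genes, lists and comparisons were chosen with earlier results of these data known. Genes named are the 10 globins, neighbours within 200 kb at 1 TPM or more, listed regulators (highest 2 and lowest 2), other globin-fold genes and the 3 nearest in level. Outside this rule, Bcl11a, Klf1, Slc4a1, Epb42, Cd3e, Alb, Hbb-bh0, Hbb-bh3 and Hba-ps4 were named after their values were seen.

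Ratios within a library used log2(TPM + 0.1) and were called apart when both libraries had the same sign and the mean passed the 95th percentile of absolute log2 ratios between libraries. Between libraries, expected counts, rounded, were kept for genes that summed to at least 20 and scaled by TMM in edgeR 4.0.16 (prior count 0.5), with DESeq2 1.42.0 size factors as an alternative and no p-values. GC content was known for 15102 of 15251 genes (99.0%). Intervals are Wilson or exact Poisson at 95%. The ratio between libraries was tested on simulated counts. The window count and the share were written out again and checked on small made-up examples. The other steps were not tested in this way. Other software was R 4.3.3, Python 3.11.15, pandas 2.3.3, numpy 2.4.6, scipy 1.17.1 and matplotlib 3.10.9.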

Additional observations from a re-analysis of the deposited data

How the results depend on the processing

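Apart from leaving out a library, 16 of 17 alternatives for 4 ratios kept the call. Several of them could hardly change it. FPKM is proportional to TPM within a library, and the filter of 0.1 TPM removed no adult gene. Both gave 1.176 for alpha over beta, as did the main setting. Of 12 alternatives for 6 levels and shares, 10 moved by less than the SD of the libraries. That SD is wide, at 180 TPM for adult alpha, so 327 TPM on coding transcripts instead of 453 counted as within it. For the number of genes that differed 2-fold, 4 of 5 alternatives stayed within 1.5 times. The pseudocounts for adult over embryonic genes were added after seeing the data and gave mean log2 ratios of 8.94 to 11.11 around 10.71. On coding transcripts alone, adult beta was at 101 TPM instead of 200.5. Computed from TPM instead of expected counts, the mean Hbb-bs share of the adult beta genes was 51.7% instead of 45.7%. The mean log2 ratio of alpha to beta on coding transcripts was 1.40 in expected counts and no longer passed the yardstick. Without a filter on low counts, 7949 genes differed at least 2-fold between libraries instead of 3113. With 2 libraries, leaving out each in turn gives the value of the other and is no test of stability, at 325.53 to 580.1 TPM for adult alpha, 143.54 to 257.4 for adult beta and 2.11 to 5.49 for the embryonic and theta genes. The log2 ratios then ran from 1.17 to 1.18 for alpha over beta, 7.23 to 7.73 for adult over embryonic and theta, 10.5 to 10.9 for adult over embryonic, and 1.41 to 2.05 for alpha over beta on coding transcripts. The retained-intron share of adult globin TPM ran from 15.0% to 45.3%, the Hba-a1 share from 31.8% to 40.6% and the Hbb-bs share from 41.6% to 49.9%. No paired analysis was possible because there is 1 group. Depth limits the embryonic genes, with 11 reads or fewer in a library, and the number of libraries limits every ratio.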
